A study of Mus musculus with 6 samples.

Results

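The genes described here encode 65 transporters that carry organic anions, organic cations, carnitine, bile salts, prostaglandins, sterols and drugs across cell membranes. They were taken by gene symbol from 6 families: 22 SLC22 genes, 15 SLCO genes, 2 SLC47 genes, 10 ABCB genes, 10 ABCC genes and 6 ABCG genes. Together they had 124 probes, of 37323 genes and 56599 probes on the array. Of the 65 genes, 52 had a probe well above background on at least 3 of the 6 arrays and were tested among 22741 genes, and 13 were not tested.

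RNA came from the renal cortex of male C57BL/6 mice, and each sample was hybridised to its own 1-colour Agilent array. The first group was 3 samples from C3aR-/- diabetic mice, which lack the receptor for the complement fragment C3a, and the second was 3 samples from WT diabetic mice. Both groups had the same treatment: a diet with 60% of calories from fat begun at 8 weeks of age, streptozotocin, a toxin of insulin-producing cells, at 60 mg/kg on 3 days after 4 weeks of that diet, and death 26 weeks after streptozotocin. The non-diabetic groups named in the series' design were not analysed here, so every difference below is between genotypes within diabetes, and the labels do not say how the C3aR-/- line was made or whether the replicates were separate animals. Limma p-values therefore measure only the spread between these samples.

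In the proximal tubule, organic anions and cations are taken up from the blood side by exchangers and facilitative carriers of the SLC22 family and leave on the urine side through MATE exchangers of the SLC47 family and ATP-driven pumps of the ABCB, ABCC and ABCG families. SLC22 members on the urine side also recover urate, nicotinate and carnitine from the filtrate. SLCO genes encode organic anion transporting polypeptides, which carry bile salts, steroid conjugates, thyroid hormones and prostaglandins. The order below follows these roles: uptake carriers first, then efflux exchangers and pumps.

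Levels are log2 processed signals minus the 75th percentile of the array, differences are C3aR-/- minus WT on that log2 scale, and ± gives the SD over 3 arrays for a level and the limma standard error for a difference. On each array between 58.6% and 63.0% of probes were well above background. C3ar1, the targeted gene, read -4.10, -4.95 and -4.69 on C3aR-/- arrays 1, 2 and 3, against -2.96, -3.86 and -3.62 on WT arrays 1, 2 and 3 (limma, adjusted p = 0.931), and no source used here says whether its probe lies in the deleted stretch. All 16 proximal tubule markers were well above background on all 6 arrays. C3aR-/- array 2 and WT array 1 stood at opposite ends of the first principal component, which held 43.1% of the variance. The arrays shared 1 slide and 1 scan date; C3aR-/- array 3 and WT array 1 were in the second row of the slide.

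Several SLC22 genes are direct neighbours in the genome. In the RefSeq annotation of GRCm38.p6, Slc22a19, Slc22a26, Slc22a27, Slc22a28, Slc22a29, Slc22a30, Slc22a8 and Slc22a6 follow each other on chromosome 19 with no other protein-coding gene between them. Slc22a5, Slc22a21 and Slc22a4 do so on chromosome 11, as do Slc47a2 and Slc47a1. Promoters of Slc22a6 and Slc22a8 are shown because these genes encode the main anion uptake carriers and lie side by side. Windows are from RefSeq (GRCm38.p6) and run 5′ to 3′ along the gene from 250 bases before its start. The Slc22a6 window is chr19:8617746-8618045 and the Slc22a8 window chr19:8592932-8593231, both on the plus strand; no letters are marked.
Slc22a6: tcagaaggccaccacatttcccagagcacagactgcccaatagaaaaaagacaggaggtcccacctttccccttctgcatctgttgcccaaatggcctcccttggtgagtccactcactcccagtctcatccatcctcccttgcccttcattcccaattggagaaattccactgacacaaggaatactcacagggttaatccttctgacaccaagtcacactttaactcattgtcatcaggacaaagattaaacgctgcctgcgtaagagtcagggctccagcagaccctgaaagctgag
Slc22a8: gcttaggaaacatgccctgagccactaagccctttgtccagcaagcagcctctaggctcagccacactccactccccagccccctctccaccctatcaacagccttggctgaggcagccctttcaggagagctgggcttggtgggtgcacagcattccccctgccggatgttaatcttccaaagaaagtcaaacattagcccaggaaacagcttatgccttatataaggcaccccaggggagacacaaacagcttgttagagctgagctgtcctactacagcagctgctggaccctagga

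The promoter of Abcc2, the MRP2 pump, is shown with the core of the antioxidant response element (TGACNNNGC), the site of NRF2, in capitals; the window is chr19:43782058-43782357 on the plus strand of GRCm38.p6, and the core began 98 bases before the start.
Abcc2: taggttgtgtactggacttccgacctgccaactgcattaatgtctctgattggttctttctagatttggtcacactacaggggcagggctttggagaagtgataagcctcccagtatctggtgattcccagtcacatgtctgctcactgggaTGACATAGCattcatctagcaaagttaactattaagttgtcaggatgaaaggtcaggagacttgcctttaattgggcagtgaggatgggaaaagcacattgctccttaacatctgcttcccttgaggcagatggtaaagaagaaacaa

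Searched on both strands, that core was in the windows of 9 of the 51 members that had a window (17.6%) and of 14.0% of all genes. Probes are the sequences that gave the values. The probe of Abcg2, the BCRP pump, lies at chr6:58642312-58642371 on the plus strand and that of Slc22a30 at chr19:8418998-8419057 on the minus strand, both in mm9, the build in the array files; a genome of mm9 was not used here, so exons were not assigned. Both are shown in lower case because they stand for a gene with little spread over the arrays and a gene with much of it.
Abcg2: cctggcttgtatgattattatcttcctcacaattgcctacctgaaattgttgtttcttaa
Slc22a30: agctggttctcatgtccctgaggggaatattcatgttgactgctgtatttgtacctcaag

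None of the transporters passed the test over all genes. Limma gave the 52 tested members adjusted p-values between 0.931 and 0.997, and no gene on the array had an adjusted p under 0.05 (0.0% of 22741, lowest 0.858). At an unadjusted p under 0.05, 1 of 52 members (1.92%) was called, Abcg5, against 4.89% of all genes tested. The groups did not overlap in 3 members (5.77%), Abcg5, Abcc10 and Slc22a29, against 9.85% of all genes. Both shares were below those of all genes, so the counts give no result about the transporters.

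In direction, 34 of the 52 members read higher in C3aR-/- cortex and 18 lower. That is 65.4% higher, against 56.6% of all genes, and the median difference was 0.18 for the members and 0.026 for all genes. The families differed in sign: the median was 0.22 over 19 SLC22 genes, 0.39 over 2 SLC47 genes, 0.22 over 9 ABCC genes, 0.11 over 6 ABCG genes, 0.089 over 8 ABCB genes and -0.061 over 8 SLCO genes. In whole cortex, fewer cells of a type and less RNA per cell cannot be told apart. Some of these medians changed when a pair of arrays was left out. That pair was picked from the same data, as the ends of the first principal component. Leaving it out lowers any difference where C3aR-/- array 2 was highest and WT array 1 lowest, and raises it in the opposite case. The values without the pair are therefore a description and not an independent check. Without C3aR-/- array 2 and WT array 1 the member median was 0.018, against 0.019 for all genes. Of the 52 member differences, 23 had the other sign, and the share of all genes that changed sign is not given here. In that setting 27 of the 52 members and 12426 of the 22741 genes read higher in C3aR-/-. The SLC22 median was then -0.11, against 0.21 for SLC47, 0.20 for ABCC, 0.073 for ABCG, -0.017 for ABCB and -0.010 for SLCO genes.

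**Figure D1:**
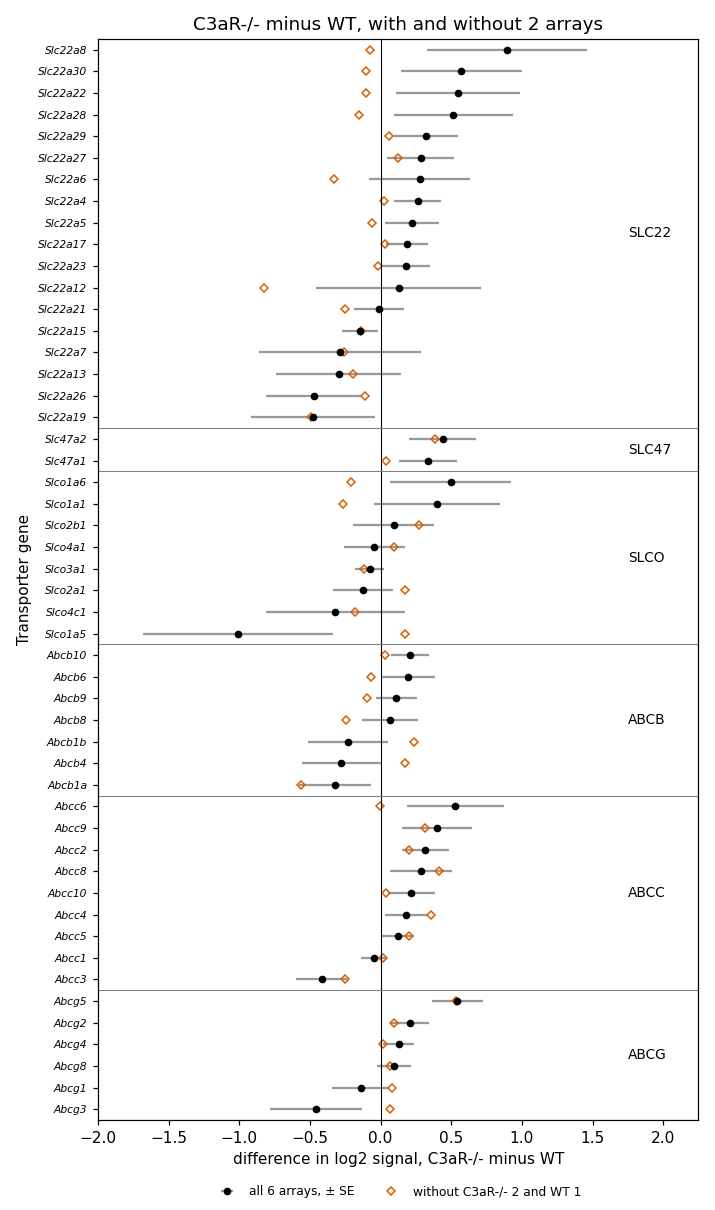
Differences in log2 signal, C3aR-/- minus WT, for 50 of the 52 tested transporters by family; filled points with bars are limma estimates ± SE over all 6 arrays and open diamonds are estimates without C3aR-/- 2 and WT 1. Slc22a8 has the highest estimate (0.89) and Slco1a5 the lowest (-1.01), and 22 diamonds lie on the other side of 0 from their point.

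The members varied more between single arrays than most genes did. The SD over the 6 arrays had a median of 0.34 over the members, 0.50 over SLC22 genes and 0.51 over SLCO genes, against 0.19 over all genes tested. C3aR-/- array 2 held the highest value of 20 members (38.5%), against 25.8% of all genes. WT array 1 held the lowest value of 27 members (51.9%), against 29.6% of all genes, and 19 members (36.5%) had both, against 14.3% of all genes. Among 19 SLC22 genes the lowest value was on C3aR-/- array 2 in 5 and on WT array 1 in the other 14.

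**Figure D2:**
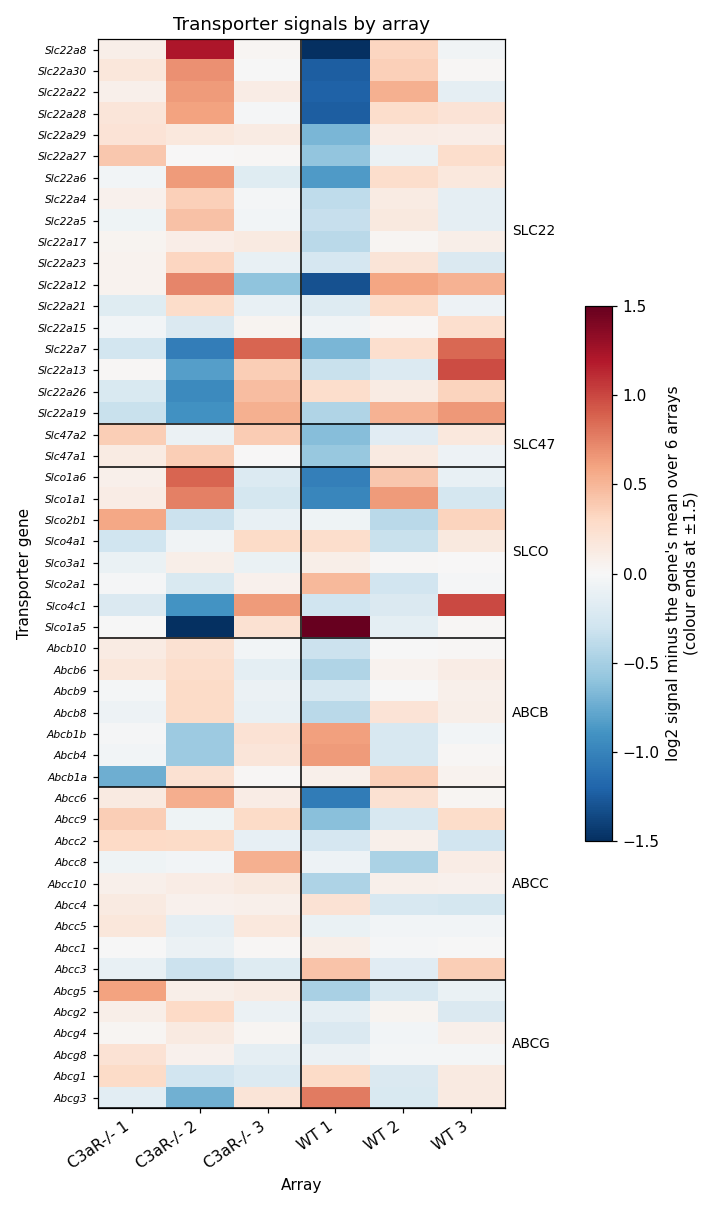
Heat map of 50 of the 52 tested transporters (down the side, by family) on C3aR-/- arrays 1 to 3 and WT arrays 1 to 3; colour is the log2 signal minus the gene's mean over 6 arrays, with colours ending at ±1.5. In the column of C3aR-/- 2 most of the upper SLC22 genes are red while Slc22a7, Slc22a13, Slc22a26, Slc22a19 and Slco4c1 are blue, and the column of WT 1 is blue for most SLC22 and both SLC47 genes.

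Uptake carriers of organic anions differed in sign among themselves with all arrays, with 4 of 7 higher in C3aR-/- cortex and none past the test. Without C3aR-/- array 2 and WT array 1, 0 of 7 read higher, with a median of -0.26. Slc22a6 encodes OAT1, the basolateral anion exchanger that takes up p-aminohippurate and urate. It read 6.86, 7.54 and 6.72 on C3aR-/- arrays 1, 2 and 3, against 6.06, 7.17 and 7.07 on WT arrays 1, 2 and 3. The groups overlapped, with the highest value on C3aR-/- array 2 and the lowest on WT array 1, and WT arrays 2 and 3 were above C3aR-/- arrays 1 and 3. The difference was 0.28 ± 0.36 (limma, adjusted p = 0.935) with all arrays and -0.33 without those end arrays.

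Slc22a8 encodes OAT3, the basolateral exchanger for drugs and larger organic anions. Its values were 2.58, 3.70 and 2.52 on the C3aR-/- arrays and 0.87, 2.81 and 2.43 on the WT arrays. Here C3aR-/- array 2 stood above and WT array 1 below the other 4 values, which lay close together and overlapped. The means were 2.93 ± 0.66 in C3aR-/- and 2.04 ± 1.03 in WT (SD, n = 3 each), a difference of 0.89 ± 0.57 or 1.86-fold, the largest positive one among the members (limma, adjusted p = 0.931). It was 0.51 within the first row of the slide and -0.08 without the end arrays. Within the second row, which holds only C3aR-/- array 3 and WT array 1, it was 1.65.

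Urate and nicotinate carriers of the urine side had wide spreads. Slc22a12, which encodes the urate reabsorber URAT1, read 3.43, 4.12 and 2.78 on C3aR-/- arrays and 2.07, 3.97 and 3.90 on WT arrays. The C3aR-/- values lay inside the WT range except for array 2, just above it. The difference was 0.13 ± 0.58 with all arrays and -0.83 without the end arrays. Slc22a13, which encodes the nicotinate and urate exchanger OAT10, read 3.58, 2.74 and 3.94 on C3aR-/- arrays and 3.24, 3.37 and 4.55 on WT arrays, with C3aR-/- array 2 lowest and WT array 3 highest (difference -0.30 ± 0.44).

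Unlike OAT1 and OAT3, several anion carriers had their lowest value on C3aR-/- array 2. Slc22a7, which encodes OAT2, read 1.15, 0.39 and 2.30 on C3aR-/- arrays and 0.74, 1.68 and 2.28 on WT arrays, with both groups spread over the same range (difference -0.29 ± 0.57). Slc22a19, which encodes the rodent carrier OAT5, read -1.88, -2.45 and -1.01 on C3aR-/- arrays and -1.99, -1.02 and -0.89 on WT arrays. C3aR-/- array 3 read close to WT arrays 2 and 3, and C3aR-/- array 1 close to WT array 1. The difference was -0.48 ± 0.44, and it was -1.21 within the first row of the slide and 0.98 within the second, which has a single array per group. Slc22a22, a mouse prostaglandin carrier of the proximal tubule, had its highest value on C3aR-/- array 2, at 0.07, 0.63 and 0.10 on C3aR-/- arrays and -1.22, 0.53 and -0.15 on WT arrays, with WT array 1 far below the rest (difference 0.55 ± 0.44, and -0.10 without the end arrays).

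The rodent-specific SLC22 genes of chromosome 19 are less well known. Slc22a30 read 4.20, 4.72 and 4.03 on C3aR-/- arrays, against 2.79, 4.39 and 4.05 on WT arrays. Only WT array 1 stood apart, and the other WT values lay among the C3aR-/- values (difference 0.57 ± 0.43). All 3 kept probes of Slc22a30 read higher in C3aR-/-, by 0.55 to 0.67. Slc22a28 differed by 0.52 ± 0.42 and by 0.51 at its second probe. Both genes read lower in C3aR-/- without the end arrays, at -0.10 for Slc22a30 and -0.15 for Slc22a28.

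Slc22a29 was 1 of the 3 members with separate groups. It read -1.23, -1.28 and -1.32 on C3aR-/- arrays, against -2.13, -1.33 and -1.34 on WT arrays. Separation was narrow: WT arrays 2 and 3 were just below the lowest C3aR-/- value, and the difference of 0.32 ± 0.23 (limma, adjusted p = 0.931) was 0.06 without the end arrays. Slc22a26 ran the other way, at -2.94, -3.66 and -2.24 on C3aR-/- arrays and -2.45, -2.59 and -2.38 on WT arrays, with the 3 WT values close together between C3aR-/- arrays 1 and 3 (difference -0.47 ± 0.34). Slc22a27 differed by 0.28 ± 0.24.

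Carriers of organic cations and carnitine mostly read higher in C3aR-/- cortex, by small amounts, though not without the end arrays. Of 6 tested genes, which include the 2 MATE genes of the SLC47 family described below, 5 read higher. All 6 had their lowest value on WT array 1, and none passed the test. Without the end arrays 3 of 6 read higher, with a median of -0.016, and both MATE genes were among those 3, at 0.036 and 0.39. Slc22a5, which encodes the sodium-coupled carnitine carrier OCTN2, read 4.49, 4.99 and 4.51 on C3aR-/- arrays and 4.21, 4.70 and 4.42 on WT arrays, overlapping through WT array 2 (0.22 ± 0.19, and -0.058 without the end arrays).

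Slc22a4, its neighbour, encodes the ergothioneine carrier OCTN1. It read 1.26, 1.56 and 1.17 on C3aR-/- arrays and 0.82, 1.32 and 1.06 on WT arrays, so WT array 2 exceeded C3aR-/- arrays 1 and 3 (0.26 ± 0.17). Slc22a21, the carnitine carrier between them in the genome, differed by -0.01 ± 0.18. Of the remaining SLC22 genes, Slc22a17, which encodes a receptor proposed to take up lipocalin 2, differed by 0.19 ± 0.15, Slc22a23 by 0.18 ± 0.17 and Slc22a15 by -0.14 ± 0.13.

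MATE exchangers, which pass organic cations into the urine in exchange for protons, both read higher in C3aR-/- cortex without passing the test. Slc47a1, which encodes MATE1, read 6.15, 6.40 and 6.04 on C3aR-/- arrays, against 5.46, 6.16 and 5.95 on WT arrays. WT array 1 lay below the rest and WT array 2 within the C3aR-/- range. The means were 6.19 ± 0.19 in C3aR-/- and 5.86 ± 0.36 in WT (SD, n = 3 each), a difference of 0.34 ± 0.20 or 1.26-fold (limma, adjusted p = 0.931). It was 0.22 within the first row of the slide, 0.57 between the single arrays of each group in the second row, and 0.04 without the end arrays. Slc47a2, which encodes MATE2, differed by 0.44 ± 0.24 at the probe used and by -0.01 at its other kept probe.

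Organic anion transporting polypeptides held the lowest difference of all members at the settings used here, at a dim probe. Slco1a5 read -4.55, -6.28 and -4.32 on C3aR-/- arrays, against -2.91, -4.69 and -4.52 on WT arrays. Its lowest value, on C3aR-/- array 2, was not well above background, and its highest, on WT array 1, stood apart from all others. The other 4 values lay between -4.69 and -4.32 and overlapped. The difference was -1.01 ± 0.67 (limma, adjusted p = 0.931) with all arrays and 0.18 without those end arrays. With normexp background correction it was -0.34, and Slc22a19 and Abcc3 were then lower, at -0.36 and -0.35.

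Slco1a6 and Slco1a1 had the mirror image of that pattern. Slco1a6 read 3.31, 4.10 and 3.03 on C3aR-/- arrays, against 2.20, 3.63 and 3.12 on WT arrays, with C3aR-/- array 2 highest and WT array 1 lowest (0.50 ± 0.43). Slco1a1, which encodes an apical carrier of steroid sulfates in mouse kidney, read 0.33, 0.98 and -0.04 on C3aR-/- arrays and -0.75, 0.86 and -0.04 on WT arrays, where WT array 2 came near the top (0.40 ± 0.45). Without the end arrays these differences were -0.21 and -0.27. Second probes differed by 0.47 for Slco1a6 and by 0.50 for Slco1a1.

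Slco4c1, which encodes a basolateral carrier of thyroid hormone and digoxin, read -3.88, -4.57 and -3.03 on C3aR-/- arrays, against -3.97, -3.88 and -2.67 on WT arrays. The groups interleaved, with replicate 3 highest in each (-0.32 ± 0.49). Slco2a1, the prostaglandin transporter, read 1.73, 1.52 and 1.83 on C3aR-/- arrays and 2.24, 1.47 and 1.74 on WT arrays, with WT array 1 above all others (-0.12 ± 0.21), and a further kept probe of Slco2a1 differed by 0.21. Slco3a1 was among the steadiest members, at 4.62, 4.81 and 4.63 on C3aR-/- arrays and 4.82, 4.75 and 4.73 on WT arrays (-0.08 ± 0.10). Slco4a1 and Slco2b1 differed by -0.04 ± 0.22 and 0.09 ± 0.29.

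**Figure D3:**
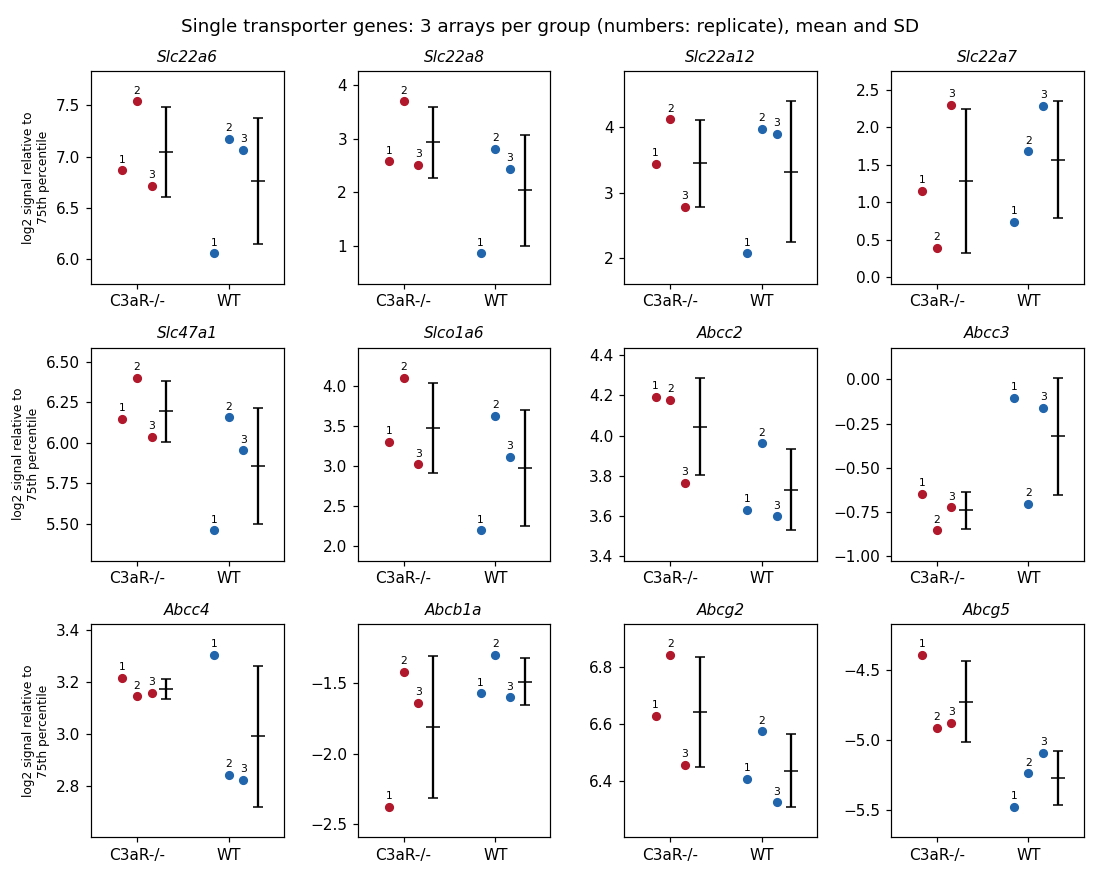
Log2 signal relative to the array's 75th percentile for 12 transporters, C3aR-/- left (red) and WT right (blue); points are arrays with their replicate number, and bars are the mean ± SD of 3 arrays, with a separate vertical scale in each panel. In Slc22a6, Slc22a8, Slc22a12, Slc47a1 and Slco1a6 the highest point is C3aR-/- 2 and the lowest WT 1, and only in Abcg5 do the groups not overlap.

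ABCB genes work in different membranes. The 3 tested pumps of the plasma membrane all read lower in C3aR-/- cortex, and the 5 transporters of mitochondria and other organelles all read higher, none past the test; without the end arrays 2 of those 3 and 2 of those 5 read higher. Abcb1a, which encodes a drug-exporting P-glycoprotein, read -2.38, -1.42 and -1.64 on C3aR-/- arrays, against -1.57, -1.30 and -1.60 on WT arrays. C3aR-/- array 1 lay far below the rest at this probe, and without it the difference of -0.32 ± 0.26 was -0.04. A second probe of Abcb1a, well above background on 1 C3aR-/- and 2 WT arrays, read -4.84, -5.80 and -5.17 on C3aR-/- arrays and -4.53, -5.04 and -4.53 on WT arrays, with C3aR-/- array 1 the highest of its group, and differed by -0.57. With the mean of both probes the difference was -0.45 (limma, unadjusted p = 0.0049, adjusted p = 0.898). Abcb1b, the other mouse P-glycoprotein gene, read 0.34, -0.20 and 0.58 on C3aR-/- arrays and 0.97, 0.12 and 0.32 on WT arrays, with the groups interleaved apart from WT array 1 (-0.23 ± 0.29).

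Abcb4, the next gene on chromosome 5, encodes a phosphatidylcholine flippase and, like Abcb1b, was lowest on C3aR-/- array 2 and highest on WT array 1. It read -0.01, -0.51 and 0.22 on C3aR-/- arrays and 0.68, -0.20 and 0.05 on WT arrays (-0.28 ± 0.28). Without the end arrays Abcb1b and Abcb4 read higher in C3aR-/-, by 0.24 and 0.18, and Abcb1a lower by -0.56. Among the transporters of mitochondria and other organelles, Abcb8, a mitochondrial protein, read 2.21, 2.58 and 2.17 on C3aR-/- arrays. On WT arrays it read 1.89, 2.49 and 2.38, so the WT range reached from below to within the C3aR-/- range (0.07 ± 0.20). Abcb10, Abcb6 and Abcb9 differed by 0.21 ± 0.14, 0.19 ± 0.19 and 0.11 ± 0.15. Without the end arrays Abcb8 was at -0.24, Abcb6 at -0.068, Abcb9 at -0.097 and Abcb10 at 0.03.

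ABCC pumps export conjugates of glutathione, glucuronate and sulfate. Of 7 tested, 5 read higher in C3aR-/- cortex and 2 lower. Abcc2, which encodes MRP2 of the apical membrane, read 4.19, 4.18 and 3.77 on C3aR-/- arrays, against 3.63, 3.96 and 3.60 on WT arrays. C3aR-/- arrays 1 and 2 were above every WT array and array 3 was below WT array 2. The means were 4.04 ± 0.24 in C3aR-/- and 3.73 ± 0.20 in WT (SD, n = 3 each), a difference of 0.32 ± 0.17 or 1.24-fold (limma, adjusted p = 0.931).

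Abcc3 is the basolateral counterpart, encoding MRP3, and had the lowest difference among the ABCC genes. It read -0.64, -0.85 and -0.72 on C3aR-/- arrays, against -0.10, -0.70 and -0.16 on WT arrays. The C3aR-/- values lay close together and only WT array 2 fell among them. The means were -0.74 ± 0.10 in C3aR-/- and -0.32 ± 0.33 in WT (SD, n = 3 each), a difference of -0.42 ± 0.18 or 0.749-fold (limma, unadjusted p = 0.056, adjusted p = 0.931). It was -0.61 without WT array 2.

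Abcc4, which encodes the apical urate and cyclic nucleotide pump MRP4, read 3.22, 3.14 and 3.16 on C3aR-/- arrays, against 3.30, 2.84 and 2.82 on WT arrays. WT array 1 was the highest of all and the other WT arrays were the lowest (0.18 ± 0.15), and the difference was 0.34 without WT array 1. Abcc6, the gene of pseudoxanthoma elasticum, read -0.10, 0.32 and -0.12 on C3aR-/- arrays, against -1.28, -0.0038 and -0.20 on WT arrays, with WT array 1 apart (0.53 ± 0.34, and -0.01 without the end arrays). Abcc1, which encodes the broadly expressed pump MRP1, read -0.36, -0.44 and -0.34 on C3aR-/- arrays and -0.27, -0.38 and -0.36 on WT arrays. It had the narrowest range of all members (-0.04 ± 0.09), while its second probe differed by 0.23.

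Abcc10, which encodes the pump MRP7, was another member with separate groups. It read 1.40, 1.42 and 1.46 on C3aR-/- arrays, against 0.85, 1.39 and 1.38 on WT arrays. As in Slc22a29, WT arrays 2 and 3 were just under the C3aR-/- values and the difference of 0.22 ± 0.17 was 0.04 without the end arrays. Abcc5 differed by 0.12 ± 0.12. The ABCC members that are subunits of potassium channels read higher too, by 0.40 ± 0.25 for Abcc9, the sulfonylurea receptor of vessels, and by 0.29 ± 0.22 for Abcc8, that of beta cells and neurons.

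ABCG members gave the 1 gene under an unadjusted p of 0.05. Abcg5 encodes a protein that pairs with that of Abcg8 to export plant sterols and cholesterol. It read -4.39, -4.91 and -4.87 on C3aR-/- arrays, against -5.48, -5.24 and -5.09 on WT arrays. All C3aR-/- values were above all WT values. The means were -4.72 ± 0.29 in C3aR-/- and -5.27 ± 0.19 in WT (SD, n = 3 each), a difference of 0.54 ± 0.18 (limma, unadjusted p = 0.022, adjusted p = 0.931). The probe was well above background on 2 C3aR-/- arrays and 1 WT array, and with normexp background correction the difference was 0.11 (limma, unadjusted p = 0.22).

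Abcg8, the partner gene beside it on chromosome 17, differed by 0.10 ± 0.12. Abcg2 encodes BCRP, an apical exporter of urate and drugs whose probe is printed above, and read 6.63, 6.84 and 6.46 on C3aR-/- arrays, against 6.41, 6.57 and 6.32 on WT arrays. Its groups overlapped by WT array 2, and the whole range was narrow (0.21 ± 0.14, or 1.15-fold). Abcg3, a rodent member, read -4.16, -4.73 and -3.82 on C3aR-/- arrays and -3.23, -4.24 and -3.87 on WT arrays, with WT array 1 highest (-0.46 ± 0.33, -0.19 with normexp correction and 0.07 without the end arrays). Abcg1, a cholesterol exporter of macrophages and other cells, differed by -0.14 ± 0.20, and Abcg4 by 0.13 ± 0.11.

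Partner genes of organic ion transport also read higher more often than lower with all arrays, but not without the end arrays. Of 18 tested partners, among them scaffolds, dicarboxylate and urate carriers and the basolateral steroid carrier, 15 read higher in C3aR-/- cortex, none had an unadjusted p under 0.05, and the median difference was 0.11. Without the end arrays 5 of the 18 read higher, with a median of -0.086, and 11 of the 18 were lowest on WT array 1. Slc51a, which encodes a subunit of the basolateral steroid and bile salt carrier, differed by 0.34 ± 0.21, and Slc13a3, which encodes the dicarboxylate carrier that feeds OAT1 and OAT3, by 0.18 ± 0.28. Pdzk1, the scaffold of apical anion carriers, differed by 0.15 ± 0.17. Of 15 transcription factors known to act on transporter genes, 11 read higher, with a median of 0.13. Without the end arrays 11 of the 15 read higher too, with a median of 0.045. Esrrg had an unadjusted limma p of 0.027 (0.29 ± 0.10, adjusted p = 0.931). Hnf4a differed by 0.14 ± 0.19 and Nfe2l2, which encodes NRF2, by -0.13 ± 0.16. Hnf4a is also on the proximal tubule list, and Slc5a8 is both a partner and an S3 marker.

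Markers of several cell types also stood apart on these end arrays. Averaged over 19 SLC22 genes, the deviation from each gene's mean was 0.009, 0.15 and 0.075 on C3aR-/- arrays 1, 2 and 3, against -0.65, 0.22 and 0.19 on WT arrays 1, 2 and 3. For 16 proximal tubule markers it was 0.15, 0.56 and -0.072 on C3aR-/- arrays, against -0.79, 0.24 and -0.086 on WT arrays. For 8 injured tubule markers it was -0.33, -0.64 and 0.024 on C3aR-/- arrays, against 0.94, -0.087 and 0.095 on WT arrays.

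C3aR-/- array 2 was thus highest for proximal tubule markers and lowest for injured tubule markers, and WT array 1 was lowest for SLC22 genes and proximal tubule markers and highest for injured tubule markers. All 16 proximal tubule markers read higher in C3aR-/- cortex (median 0.35), and all 16 were lowest on WT array 1. All 8 injured tubule markers read lower (median -0.68), 3 of them with an unadjusted limma p under 0.05: Lcn2 (-1.21 ± 0.44), Krt19 (-0.80 ± 0.27) and Sox9 (-0.60 ± 0.10). Immune markers read lower as well, 7 of 7 for macrophages (median -0.60, 3 with an unadjusted p under 0.05) and 7 of 7 for T cells (median -1.22, 6 with an unadjusted p under 0.05). Of all genes tested, 4.89% had an unadjusted p under 0.05. None of these injured tubule and immune markers passed the test over all genes. Adjusted limma p was 0.920 for Sox9 and 0.931 for Lcn2 and Krt19. Distal convoluted tubule markers, 4 of 4 higher and 4 of 4 lowest on WT array 1, deviated by 0.060, 0.31 and 0.030 on C3aR-/- arrays and by -0.46, 0.047 and 0.0096 on WT arrays, and macrophage markers by -0.11, -0.62 and -0.17 on C3aR-/- arrays and by 0.57, -0.090 and 0.43 on WT arrays. When the end arrays were left out, 5 of 16 proximal tubule, 2 of 4 distal and 2 of 8 injured tubule markers read higher. Macrophage and T cell markers then kept their direction, with 0 of 7 higher in each list and medians of -0.22 and -0.94. Of 9 collecting duct markers, 9 read higher with all arrays (median 0.13) and 8 without the end arrays (median 0.24). Among them Slc26a4 had an unadjusted limma p of 0.029 (adjusted p = 0.931). Podocyte markers read higher in 3 of 5 with all arrays and in 5 of 5 without the end arrays. These counts were 4 and 5 of 6 for stroma, 5 and 4 of 6 for endothelium, and 4 and 4 of 5 for thick ascending limb. The part of these cell markers in the transporter differences was not tested.

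**Figure D4:**
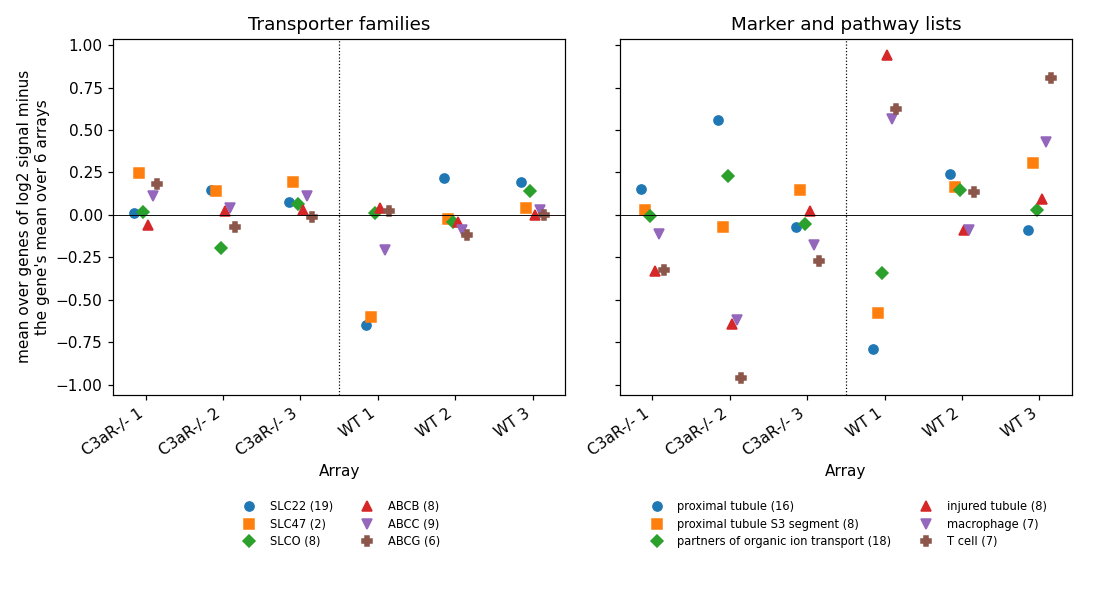
Mean deviation from each gene's mean over 6 arrays (log2 signal) on C3aR-/- arrays 1 to 3 and WT arrays 1 to 3, for the transporter families (left) and for marker and pathway lists (right), with the number of genes in brackets. SLC22 (-0.65) and SLC47 (-0.60) are lowest on WT 1, as are the proximal tubule markers (-0.79), while the injured tubule markers are highest there (0.94).

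Within the proximal tubule, the mean over markers of the S3 segment followed another order. Averaged over 8 of them, the deviation was 0.030, -0.069 and 0.15 on C3aR-/- arrays and -0.58, 0.17 and 0.30 on WT arrays, and 5 of 8 read higher in C3aR-/-. In this mean WT array 1 was again lowest, but C3aR-/- array 2 was below the other C3aR-/- arrays. The low mean on C3aR-/- array 2 rested largely on Cyp7b1. Slc5a8 and Acy3 of the same list had their highest value there, at 2.78 and 7.34. Cyp7b1 of that list was lowest on C3aR-/- array 2, as were Slc23a3 of the same list and Slc22a7, Slc22a13, Slc22a19, Slc22a26 and Slco4c1. The other 6 S3 markers were lowest on WT array 1. Those carriers were not the only such members. In all, 14 of the 52 members (26.9%) were lowest on C3aR-/- array 2, against 20.8% of all genes. Abcb1b, Abcb4, Abcc3, Slc22a15 and Slco1a5 were among the others. Cyp7b1 read 1.74, 0.34 and 2.09 on C3aR-/- arrays and 1.45, 1.46 and 2.53 on WT arrays, and was picked out after its values were seen.

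The 13 members that were not tested were well above background on at most 2 arrays. They were Abcb5, Abcb11, Abcc12, Slc22a14, Slc22a16, Slc22a20, Slco1a4, Slco1b2, Slco1c1, Slco5a1, Slco6b1, Slco6c1 and Slco6d1, and 9 of them were not well above background on any array. Several are known from other organs, such as Abcb11, the bile salt export pump of liver, and Slco1c1, the thyroxine carrier of brain vessels. Slco1a4 was well above background on 1 C3aR-/- and 1 WT array, Slc22a16 on 1 C3aR-/- array and Abcb5 on 1 WT array, so no difference is given for them. Among the 19 tested members with more than 1 kept probe, probes of 7 differed in sign: Abcc1, Abcc5, Abcg4, Slc47a2, Slco2a1, Slco3a1 and Slco4a1. Members with near-identical copies, such as Abcb1a and Abcb1b or the Slco1a and chromosome 19 SLC22 genes, could share signal, and the probes were not checked for that.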

How the data were processed

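RNA of 6 cortex samples was labelled with Cy3 and read on 1-colour Agilent arrays, and the sample titles gave the groups. Agilent Feature Extraction 10.7.1.1 made the deposited intensity values, per the submitters' processing notes, and per the file headers the processed signal is background-subtracted and spatially detrended, with probe coordinates in mm9. The authors' deposited table holds log2 values; each column correlated with its own array's processed signal at r of at least 0.999 and had a median of 5.74, and no source used here states its scaling or centring. It served as an alternative.

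Control and outlier spots were left out, spots of a probe were averaged, and 6 probes were lost to flags; none was saturated. Values were log2 processed signals minus each array's 75th percentile. Probes well above background on at least 3 arrays were kept, the probe with the highest mean stood for each gene, and 32992 probes were named through their accession in RefSeq, while 23607 kept the name in the files. Differences were tested with limma 3.58.1 in R 4.3.3 with Benjamini-Hochberg adjustment over 22741 genes, after the fit had been tested on simulated data. The number of arrays limits the precision. Values on every array are given for members with an unadjusted p under 0.05, the 5 largest differences in each direction, the member with the highest mean in each family and 20 transporters known from kidney; others are single values or counts, and a few more were added after their values were seen. Members, lists and alternatives were chosen with earlier results of these data known. Promoter windows came from RefSeq (GRCm38.p6), where 51 of 65 members matched. Some single genes are counted in the totals and their own values are not reported here. Replicate numbers did not pair the samples. Alternatives were normexp (offset 50), scaling by quantiles or by the median, the values from that table, 2 other filters, the mean of probes, trend and robust variances, array weights, blocks for replicate number and slide row, and leaving out arrays. Figures were drawn with matplotlib 3.10.9.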

Additional observations from a re-analysis of the deposited data

Results flagged for a closer look

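A probe of Abcc12, a pump of the ABCC family that was left out of the tests, had signal in 1 group. The probe lies at chr8:89028740-89028799 on the minus strand (mm9).
Abcc12: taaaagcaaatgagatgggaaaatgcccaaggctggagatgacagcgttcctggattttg

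It read -1.78, -2.08 and -7.42 on C3aR-/- arrays 1, 2 and 3, against -7.52, -5.34 and -7.55 on WT arrays 1, 2 and 3. The probe was well above background on 2 C3aR-/- arrays and 0 WT arrays, so C3aR-/- arrays 1 and 2 stood far above the other 4. The other 3 Abcc12 probes, of which the nearest begin 215 bases before and 613 bases after it, were not well above background on any array. No fold is given, since WT arrays have only a bound. With no filter on dim probes, limma gave Abcc12 an unadjusted p of 0.11 and did not call it.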

How the results depend on the processing

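No gene had an adjusted p under 0.05 in any setting, the lowest of a member over all settings was 0.46, and 24 of 52 members kept their sign in all of them. Of the members, 1 had an unadjusted p under 0.05 with all arrays (4.89% of all genes did), 0 with the filter on all 6 arrays (4.67%) or with trend and robust variances (4.22%), 2 with the mean of probes (5.08%), 5 with array weights (9.3%), and also 5 without both end arrays (8.9%), which are C3aR-/- replicate 2 and WT replicate 1. It was 3 with the replicate block (7.02% of all genes; Abcg5, Abcc3 and Slc22a8), although the numbers did not pair the samples: same-numbered arrays correlated at 0.13, 0.41 and -0.093 in their deviations, and not every sample correlated best with its own number. Leaving out 1 array gave 0 to 3 such members: 0 without C3aR-/- replicate 1, 1 without C3aR-/- replicate 2, 2 without WT replicate 1 and 3 without any other, against 3.37% to 6.7% of all genes. Members whose groups did not overlap were 3, against 1 with normexp (10.3% of all genes), 5 with the mean of probes (10.4% of all genes), 5 to 13 when 1 array was left out (14.9% to 23.1%), highest without WT replicate 2, and 18 without both end arrays, where 41.7% of all genes did not overlap. The median difference of members was 0.18 with all arrays, 0.069 with array weights, 0.018 without both end arrays, 0.099 without C3aR-/- replicate 2 and 0.045 without WT replicate 1. Normexp brought dim members closer to 0 by over 1.5 times, among them Slco4c1 to -0.11, Slc22a26 to -0.27, Slc22a27 to 0.18, Slc47a2 to 0.29, Abcc8 to 0.17 and Abcg8 to 0.057. With 3 arrays a group, or 2, the number of arrays limits every value.

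Without both end arrays 23 members changed sign, among them Abcb1b at 0.24, Abcb4 at 0.18, Abcb6 at -0.068, Abcb8 at -0.24, Abcb9 at -0.097, Abcc1 at 0.020, Abcc6 at -0.0062, Abcg1 at 0.078, Abcg3 at 0.067, Slc22a12 at -0.83, Slc22a22 at -0.10, Slc22a23 at -0.016, Slc22a28 at -0.15, Slc22a30 at -0.10, Slc22a5 at -0.058, Slc22a6 at -0.33, Slc22a8 at -0.076, Slco1a1 at -0.27, Slco1a5 at 0.18, Slco1a6 at -0.21, Slco2a1 at 0.17 and Slco4a1 at 0.093. With array weights 14 did, among them Abcb1b at 0.079, Abcb4 at 0.030, Abcb8 at -0.15, Abcb9 at -0.0087, Abcg1 at 0.14, Slc22a12 at -0.43, Slc22a22 at -0.0024, Slc22a5 at -0.014, Slc22a6 at -0.13, Slco1a1 at -0.12, Slco1a6 at -0.011, Slco2a1 at 0.10 and Slco4a1 at 0.022. The mean of probes gave Abcc1 at 0.095, Slco2a1 at 0.026 and Slco4a1 at 0.12, and normexp gave Slc22a21 at 0.0028. Leaving out 1 array in turn gave, for the members shown whose sign changed, Abcb1b -0.40 to 0.022, Abcb8 -0.11 to 0.19, Abcb9 -0.0060 to 0.18, Slc22a12 -0.49 to 0.46, Slc22a13 -0.56 to 0.12, Slc22a21 -0.15 to 0.13, Slc22a6 -0.078 to 0.48, Slc22a7 -0.80 to 0.16, Slco2a1 -0.30 to 0.089, Slco2b1 -0.17 to 0.28, Slco4a1 -0.22 to 0.094 and Slco4c1 -0.72 to 0.098. The cause of these changes was not tested, and the end arrays were picked from these same data.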
